A study of Mus musculus with 20 samples.

Results

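Sympathoadrenal transcription factors were examined in N2A cells, a mouse neuroblastoma cell line also called Neuro2A, as a set of 8 genes: Phox2a, Hand2, Gata2, Gata3, Isl1, Tbx2, Mycn and Insm1. They were chosen by name as regulators of this tumour lineage, with earlier results of these data known, and are 8 of 34083 genes with values. For each gene, the estimated reads and the TPM values (a level corrected for transcript length and depth) were summed over all of its annotated transcripts in each of 20 bulk RNA-seq libraries. All cells were of the same line, seeded a day earlier into glass-bottom 384-well plates, and no gene was modified. Whole wells were scanned with a pulsed near-infrared laser and lysed 1 h later, and NC wells were handled alike without laser exposure. Batch 1, as the batch id label gives it, held 3 libraries of NC and 3 of each of the single-laser settings described next. I0-E0 was the lowest exposure, at 2 µs per pixel. I0-E2 and I0-E4 used the same intensity with a pixel dwelling time of 10 and 20 µs, which gave 5 and 10 times the fluency. I2-E2 used 5 times the intensity at 2 µs per pixel, so that its fluency equalled that of I0-E2. Batch 2 held 2 NC libraries and 3 libraries of I3-E3-SRS, in which pump and Stokes lasers acted together (stimulated Raman scattering, SRS) near the setting that burns cells. The methods describe separate wells, 3 of them unexposed, whereas batch 2 holds 2 NC libraries here. No source ties a library to a well or says whether wells were seeded from separate cultures, so the p-values measure the spread between these libraries, which may be technical.

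These factors belong to the network that makes and maintains sympathetic neurons and adrenal chromaffin cells from the neural crest, the lineage from which neuroblastoma arises. PHOX2A and ISL1 are homeodomain proteins, HAND2 is a basic helix-loop-helix protein that binds E-boxes with E-protein partners, GATA2 and GATA3 are zinc finger proteins that bind GATA sites, and TBX2 is a T-box repressor. In human neuroblastoma several of them bind each other's enhancers as a core regulatory circuit. MYCN, the MYC family member amplified in high-risk tumours, and INSM1, a zinc finger repressor of neuroendocrine precursors, act with that circuit.

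The start regions of 3 members are shown because Hand2 had the highest level of the 8, and because Gata2 and its paralog Gata3 kept unlike patterns between batches. Each sequence is the 250 bases before the RefSeq start on the gene's strand (GRCm38.p6), with no base in an annotated exon of the gene. For Gata2 it lies before the distal of the annotated starts. Capitals mark matches on either strand to 3 motifs. The E-box was searched as CANNTG. The core recognised by zinc finger factors of this family was searched as GATAA. The homeodomain core was searched as TAATTA.
Hand2, chr8:57320733-57320982, plus strand: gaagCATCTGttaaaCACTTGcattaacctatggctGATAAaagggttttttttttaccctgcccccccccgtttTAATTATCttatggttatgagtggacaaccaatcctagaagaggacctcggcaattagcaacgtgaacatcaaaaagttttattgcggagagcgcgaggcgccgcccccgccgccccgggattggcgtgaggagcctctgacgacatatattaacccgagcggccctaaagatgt
Gata2, chr6:88193641-88193890, plus strand: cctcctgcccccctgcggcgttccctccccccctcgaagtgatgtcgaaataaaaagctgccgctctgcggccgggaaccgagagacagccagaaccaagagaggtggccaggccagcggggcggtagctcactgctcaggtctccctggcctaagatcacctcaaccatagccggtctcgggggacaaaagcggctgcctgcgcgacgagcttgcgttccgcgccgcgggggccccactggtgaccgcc
Gata3, chr2:9878601-9878850, minus strand: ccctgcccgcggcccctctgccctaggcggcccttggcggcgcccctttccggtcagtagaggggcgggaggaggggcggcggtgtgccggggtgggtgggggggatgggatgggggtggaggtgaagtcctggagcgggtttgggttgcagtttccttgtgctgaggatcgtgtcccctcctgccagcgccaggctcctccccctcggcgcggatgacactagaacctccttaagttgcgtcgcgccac

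The Hand2 window held 2 CANNTG, 2 GATAA and 1 TAATTA matches, and one of its GATAA matches, on the opposite strand, overlaps TAATTA. The Gata2 and Gata3 windows held none of the 3 motifs. Among 32851 RefSeq promoter windows of the same length, 66.2% held CANNTG, 22.6% held GATAA and 4.84% held TAATTA. G and C made up 49.2% of the Hand2 window, against 67.2% for Gata2 and 70.0% for Gata3. The RefSeq promoter table matched 6 of the 8 members, and Tbx2 and Insm1 had no entry. These matches are letters in a window and no evidence of binding.

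The 20 libraries held 5473588 to 12698770 estimated reads, and every member had at least 76 reads in every library. All 8 passed the filter on low counts in each fit. I0-E0 replicate 3 showed 20042 genes with at least 1 read, against 15586 to 17226 in the others. NC replicate 1 of batch 2 stood apart in TPM: transcripts under 300 bases took 33.0% of its TPM, against 1.62% to 2.30% elsewhere, although they held only 0.731% of its reads. TPM levels are therefore given over the other 19 libraries, and comparisons between libraries use CPM, estimated reads relative to the TMM-scaled library size. Of the noradrenergic markers, Dbh, which encodes the enzyme that makes noradrenaline, had 98 to 397 reads in a library, and Th, which encodes the first enzyme of that pathway, had 18 to 70. Marker lists of other cell types were at low levels in every library. The summed CPM of 6 fibroblast markers was at most 7.29, that of 4 epithelial markers at most 1.45, that of 6 Schwann and glial markers at most 11.7 and that of 4 endothelial markers at most 18.1. Of 7 macrophage and blood markers the sum was at most 7.14, with Lyz2 and Hba-a1 at 0 reads throughout.

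Per length, Hand2 was the most abundant member, with a TPM of 309 ± 14.9 (SD, n = 19 libraries), and ranked 513 among all genes. Gata2 followed at 201 ± 22.1 TPM and Phox2a at 195 ± 11.2 TPM, and these neighbours changed places. Gata2 was above Phox2a in only 10 of 19 libraries, 6 of 15 in batch 1 and 4 of 4 in batch 2. Tbx2 reached 66.6 ± 12.9 TPM and Insm1 62.8 ± 12.4 TPM. Tbx2 exceeded Insm1 in all 15 libraries of batch 1 and in 0 of the 4 of batch 2. Mycn stood at 31.3 ± 4.25 TPM. Isl1, at 18.7 ± 4.37 TPM, and Gata3, at 16.9 ± 3.53 TPM, closed the order and did not separate beyond their spread. Isl1 was higher in 13 of 19 libraries, 9 of 15 in batch 1 and 4 of 4 in batch 2. At the level of rank, 79.8% of all genes had a lower mean TPM than Gata3, the least abundant of the 8.

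**Figure D1:**
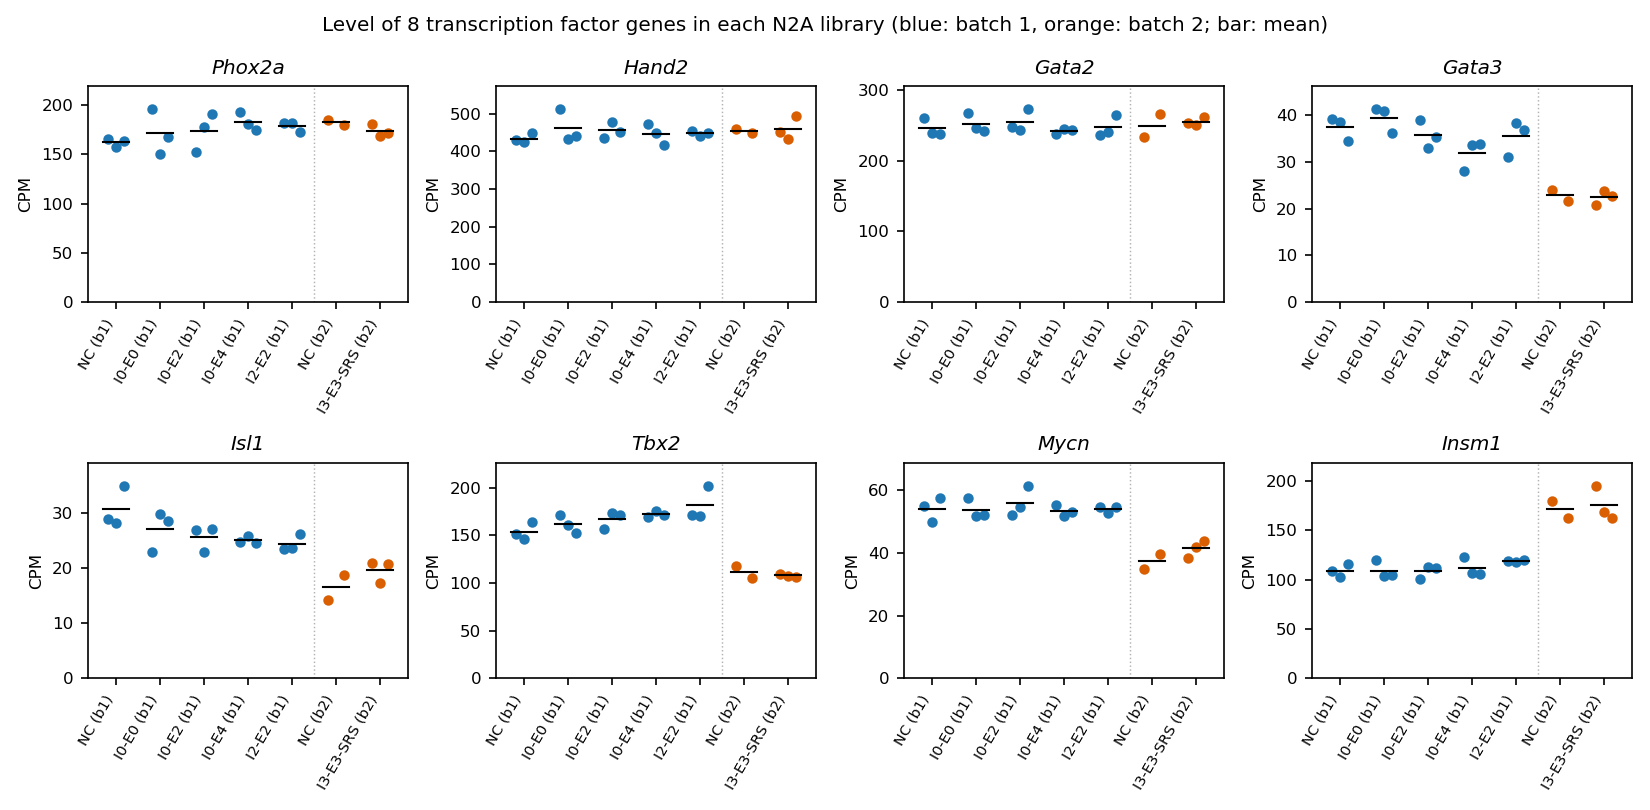
Level of each factor in CPM (TMM-scaled, vertical axis from 0) in each library of the 7 groups, with a point per library and a bar at the group mean, where b1 and b2 are batch 1 and batch 2. The libraries of both batches overlap for Phox2a, Hand2 and Gata2, whereas Gata3, Isl1, Tbx2 and Mycn are lower and Insm1 is higher in all 5 libraries of batch 2.

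Most of the members were read from 1 main transcript. Hand2, Tbx2 and Insm1 have a single annotated transcript, Gata3-201 held 99.6% of Gata3 reads, Phox2a-201 97.3% of Phox2a reads, Mycn-201 92.3% of Mycn reads and Isl1-201 91.7% of Isl1 reads. Gata2 was the exception. Its transcript from the distal start, Gata2-202, held 68.1% of Gata2 reads, and the proximal transcripts Gata2-201 and Gata2-203 held 25.8% and 5.04%. In TPM, corrected for length, the means over all 20 libraries were 83.5 for Gata2-202, 27.1 for Gata2-201 and 81.7 for Gata2-203. Shares of reads are therefore not shares of transcripts, and the distal share was lower by TPM. Distal and proximal starts are known from mouse Gata2, where the distal one is used in blood cells and the nervous system. Among the reads of these 3 transcripts, the distal share ran from 57.5% to 79.1% over 19 libraries, with a median of 68.2%, and was 90.1% in NC replicate 1 of batch 2, the library that stood apart in TPM. In batch 1 the NC share was 67.6% to 72.8%, and the range of every exposed group of batch 1 overlapped it. Salmon divides reads among transcripts that share exons, so these shares are model estimates.

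**Figure D2:**
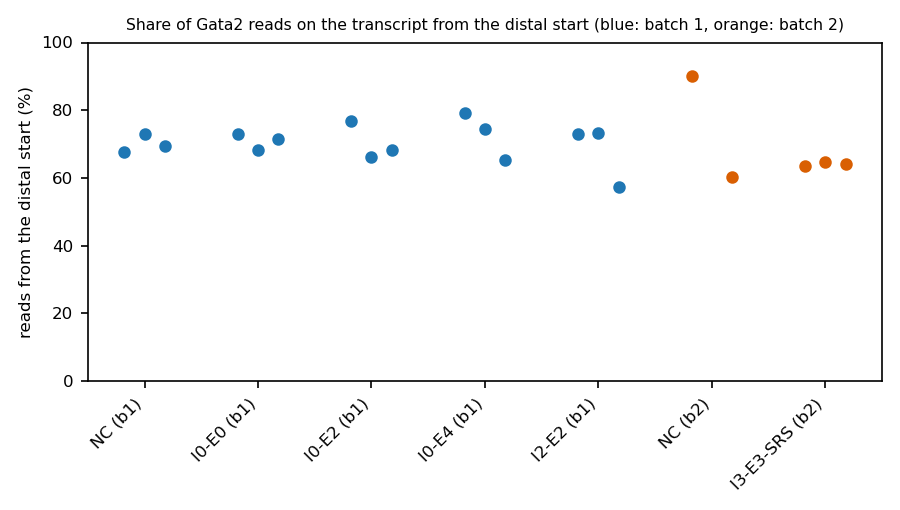
Share of the reads of Gata2-201, Gata2-202 and Gata2-203 that was assigned to Gata2-202, the transcript from the distal start, in percent (vertical axis from 0 to 100), with a point per library in the 7 groups. All libraries lie between 57.5% and 79.1% except NC replicate 1 of batch 2, at 90.1%.

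The transcripts of the members shared sequence with other annotated genes to unequal degrees. The genes lie on 7 chromosomes of GRCm38 (GENCODE vM21): Phox2a at chr7:101818313-101822726 (plus strand), Hand2 at chr8:57320983-57324633 (plus), Gata2 at chr6:88193891-88207032 (plus), Gata3 at chr2:9857078-9890034 (minus), Isl1 at chr13:116298281-116309689 (minus), Tbx2 at chr11:85832551-85841948 (plus), Mycn at chr12:12936093-12941914 (minus) and Insm1 at chr2:146221921-146225020 (plus). Of the 31-base words in its transcripts, Gata2 shared none with another gene, and Isl1, Tbx2, Mycn and Insm1 had at least 99.0% to themselves. For Phox2a 96.7% of words were its own, and its 3′ end overlaps exons of Inppl1 on the opposite strand, a gene with 791 to 2059 reads. For Gata3 96.2% were its own, and the gene that shared most of the others was the antisense Gm13256. Hand2 was the least distinct, with 82.6%, because the antisense Hand2os1 covers part of it. The words were compared with all GENCODE vM21 transcripts. Gm13256 and Hand2os1 had no values among the genes counted here, so no reads were divided between them and the members. The sources do not state whether the counting used strand, so the levels of Phox2a, Gata3 and Hand2 may include antisense reads.

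The first question was whether laser exposure moved these factors within an hour. In the comparisons with NC of the same batch, none of the 8 passed the threshold in any of the 5 exposure settings (edgeR's quasi-likelihood test, Benjamini-Hochberg adjusted p under 0.05), where the share of all genes called was 0% in each setting. limma-voom and DESeq2 called 0 of the 8 as well. At an unadjusted p under 0.05, the count of members was 0 for I0-E0, where 3.36% of all genes fell below it, 1 for I0-E2 (3.36%), 3 for I0-E4 (7.91%), 2 for I2-E2 (7.19%) and 0 for I3-E3-SRS (4.02%). A test of any difference among the 5 groups of batch 1 also called 0 of the 8, with 0% of all genes called. In that test 1 member, Tbx2, had an unadjusted p under 0.05, against 4.23% of all genes.

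Hand2, Gata2 and Phox2a were the most abundant factors. Hand2 in batch 1 read 429, 424 and 449 CPM in NC and 416 to 512 CPM in the 12 exposed libraries. The groups overlapped, and 10 of the 12 exposed libraries lay above the NC mean. Its log2 fold changes in the 4 settings of batch 1 ran from 0.04 (I0-E4) to 0.09 (I0-E0), and the 95% intervals of all 4 lay between -0.10 and 0.23. For Gata2 the NC libraries read 260, 239 and 237 CPM and the fold changes ran from -0.02 to 0.05 on the log2 scale. Phox2a had NC levels of 166, 157 and 164 CPM, and 10 of 12 exposed libraries of batch 1 lay above the NC mean. Its highest estimate was 0.17 in I0-E4 (log2, 95% interval -0.02 to 0.35, unadjusted p = 0.0699, edgeR adjusted p = 0.628). In batch 2 Phox2a had the lowest estimate of the 8, -0.08 (interval -0.22 to 0.06), with 3 of 3 exposed libraries below the NC mean.

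Isl1, which encodes a LIM-homeodomain factor of sympathetic and motor neurons, had the lowest estimate of the 8 in each of the 4 settings of batch 1. Its NC libraries read 28.9, 28.2 and 34.9 CPM. The exposed libraries read 22.9, 29.8 and 28.6 CPM in I0-E0, 26.9, 23.0 and 27.0 CPM in I0-E2, 24.8, 25.9 and 24.6 CPM in I0-E4, and 23.5, 23.7 and 26.1 CPM in I2-E2. All 12 exposed libraries lay below the NC mean of 30.7 CPM, as did NC replicates 1 and 2. The share of all genes with such a one-sided count was not determined, here or for Hand2, Phox2a and Tbx2. A larger absolute change than that of Isl1 was seen in 21.2% of all genes tested in I0-E0. That share was 12.4% in I0-E2, 13.0% in I0-E4 and 11.9% in I2-E2. In the same order of settings, the log2 fold changes were -0.17, -0.25, -0.29 and -0.32, each with an SE of 0.11 or 0.12. The unadjusted p-values were 0.141, 0.0383, 0.0229 and 0.0134, and the edgeR adjusted p-values lay between 0.612 and 1.00. The 4 comparisons share the same 3 NC libraries, so that they are not independent of each other. In batch 2 the estimate had the other sign: NC read 14.3 and 18.7 CPM, I3-E3-SRS 20.9, 17.3 and 20.7 CPM, and the log2 fold change was 0.23 (95% interval -0.14 to 0.60, edgeR adjusted p = 1.00). It was 0.06 without NC replicate 1 and 0.46 without NC replicate 2 of that batch. A test of the difference in exposure effect between batches called 0 of the 8 members, with 0.0078% of all genes called by edgeR, and 1 member, Isl1, had an unadjusted p under 0.05, against 4.4% of all genes.

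Tbx2, a repressor that holds back cell cycle inhibitors, had estimates above 0 in all 4 settings of batch 1. NC read 151, 146 and 164 CPM. I2-E2 read 171.2, 170.5 and 202.0 CPM, and this was the smallest p of any member in an exposure comparison: a log2 fold change of 0.24 (SE 0.07, 95% interval 0.09 to 0.40, unadjusted p = 0.00374, edgeR adjusted p = 0.601). A larger absolute change was seen in 17.6% of all genes tested in that comparison. I2-E2 replicate 3 was the highest library, and without it the log2 fold change was 0.15. The other settings gave 0.07 for I0-E0, 0.12 for I0-E2 and 0.16 for I0-E4, with 11 of the 12 exposed libraries of batch 1 above the NC mean. The group means followed one order in both genes, from NC through I0-E0, I0-E2 and I0-E4 to I2-E2, from 154 to 181 CPM for Tbx2 and from 30.7 to 24.4 CPM for Isl1. Each group's range overlapped that of its neighbour in this order. None of the other members followed it, and the share of all genes that did was not counted. I2-E2, last in this order, had the fluency of I0-E2. The Phox2a means of batch 1 rose in an order of fluency, from NC through I0-E0, I0-E2 and I2-E2 to I0-E4. They ran from 162 to 183 CPM, and neighbours overlapped there too. No trend with fluency or intensity was tested. In I3-E3-SRS, Tbx2 read 110, 108 and 107 CPM against 118 and 105 CPM in NC, within the spread.

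Gata3, Mycn and Insm1 completed the set. Gata3, the GATA factor of sympathetic neurons and chromaffin cells, read 28.0, 33.7 and 33.7 CPM in I0-E4 against 39.3, 38.5 and 34.4 CPM in NC. Its log2 fold change there was -0.24 (95% interval -0.46 to -0.02, unadjusted p = 0.0371, edgeR adjusted p = 0.620). In I0-E4, 18.4% of all genes tested had a larger absolute change. In the remaining settings its estimates were between -0.08 and 0.07. Mycn was close to NC in batch 1, with estimates from -0.02 to 0.05 and 95% intervals that all lay between -0.18 and 0.21 on the log2 scale. Insm1 read 118.4, 117.5 and 119.6 CPM in I2-E2 against 108, 103 and 115 CPM in NC, a log2 fold change of 0.13 (interval -0.03 to 0.28), and was within 0.04 of NC in the other settings of batch 1.

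**Figure D3:**
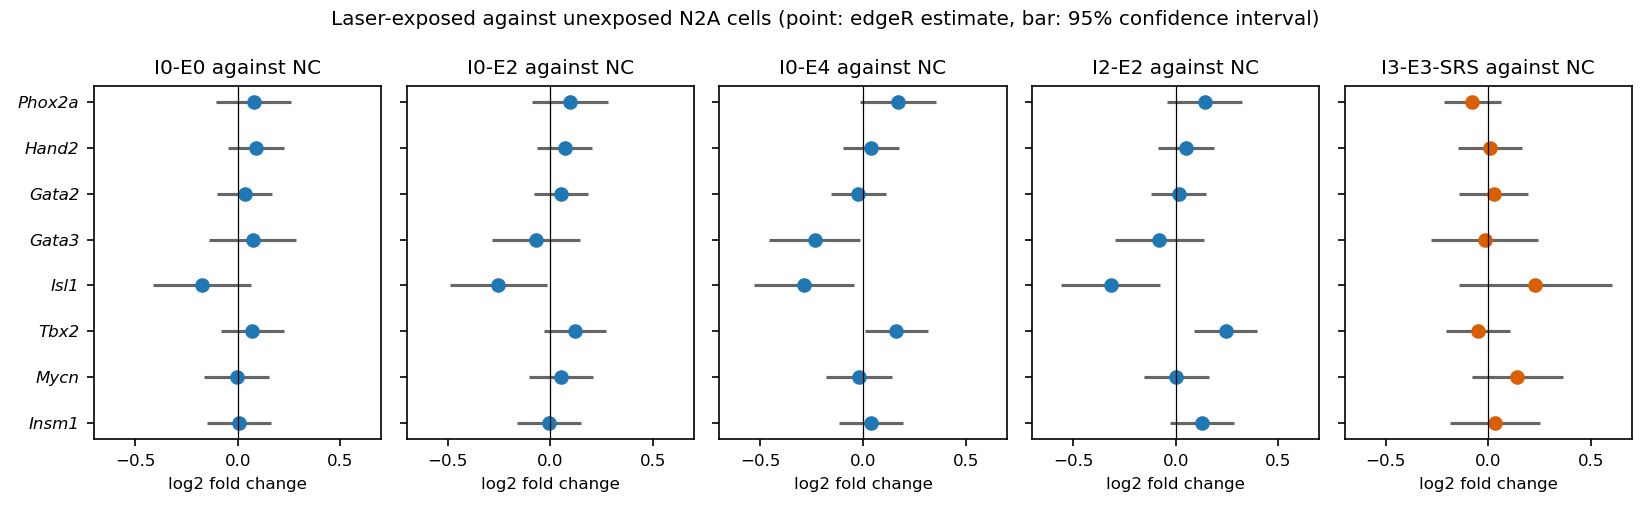
Log2 fold change of each factor in the 5 exposure settings against NC of the same batch, with a point at the edgeR estimate and a bar for the 95% confidence interval (blue for batch 1, orange for batch 2). The Isl1 estimates run from -0.17 to -0.32 in batch 1 and reach 0.23 in I3-E3-SRS (0.06 without NC replicate 1 and 0.46 without NC replicate 2 of batch 2), and no member passed the adjusted threshold.

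Within-group precision bears on these comparisons. In the fit of batch 1, the biological coefficient of variation (the relative spread between replicates beyond counting) was 5.21% for Mycn, 5.69% for Gata2, 5.90% for Insm1, 6.04% for Hand2, 6.21% for Tbx2, 7.28% for Gata3, 7.52% for Phox2a and 8.18% for Isl1. The median over 9079 genes at 10 CPM or more was 6.75%. Mycn was therefore steadier than 81.1% of these genes, and Isl1 than 29.5%. In batch 2 the spread of Isl1 was 13.4%, above the median of 8.15%.

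The second comparison was between the unexposed cells of both batches. Batch, plate, culture and library preparation cannot be told apart here. In a fit of all 20 libraries, 5 of the 8 factors differed between NC of batch 2 and NC of batch 1, where 17.3% of all genes were called, 9.9% as higher and 7.41% as lower in batch 2. The 5 were Gata3, Isl1, Tbx2 and Mycn, which were lower in batch 2, and Insm1, which was higher. All 5 were also called without NC replicate 1 of batch 2, the library that stood apart, although the count over all genes then fell from 2220 to 1120. By size, 5 members differed by more than 0.3 on the log2 scale (33.8% of all genes did), 3 by more than 0.6 (15.6%) and 0 by more than 1 (8.45%).

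Isl1 showed the widest difference. NC read 28.9, 28.2 and 34.9 CPM in batch 1 and 14.3 and 18.7 CPM in batch 2, a log2 fold change of -0.87 (SE 0.14, edgeR adjusted p = 2.97e-04). Over all 15 libraries of batch 1 its levels ran from 22.9 to 34.9 CPM with a median of 26.1 CPM, and all 5 libraries of batch 2 lay below that range. Gata3 fell from 39.3, 38.5 and 34.4 CPM to 24.0 and 21.6 CPM, a log2 fold change of -0.73 (SE 0.12, adjusted p = 2.39e-04 in edgeR). The I3-E3-SRS libraries, at 20.9, 23.8 and 22.8 CPM, were at the level of the NC libraries beside them.

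Mycn read 54.7, 49.6 and 57.5 CPM in NC of batch 1 and 34.8 and 39.6 CPM in NC of batch 2, a log2 fold change of -0.52 (SE 0.09, edgeR adjusted p = 4.74e-04). Tbx2 went from 151, 146 and 164 CPM to 118 and 105 CPM, with a log2 fold change of -0.46 (SE 0.08, edgeR adjusted p = 5.98e-04). Insm1 was the only member called as higher: it read 108, 103 and 115 CPM in NC of batch 1 against 179 and 163 CPM in NC of batch 2, a fold of 1.57 and a log2 fold change of 0.65 (SE 0.09, edgeR adjusted p = 4.34e-05). For these 5, all 15 libraries of batch 1 were separated from all 5 of batch 2, as were 12.9% of all genes tested.

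Phox2a, Hand2 and Gata2 did not pass the threshold between batches. Their log2 fold changes were 0.17 (95% interval -0.03 to 0.36), 0.07 (-0.09 to 0.22) and 0.02 (-0.13 to 0.18), and the interval of Phox2a reached up to 0.36 although its NC libraries did not overlap between batches. Their means over all libraries of batch 1 and batch 2 were 174 and 177 CPM for Phox2a, 449 and 457 CPM for Hand2 and 248 and 253 CPM for Gata2. The I3-E3-SRS libraries set against NC of batch 1 gave calls of the same 5 members in the same directions, with log2 fold changes of -0.73 for Gata3, -0.64 for Isl1, -0.51 for Tbx2, -0.38 for Mycn and 0.69 for Insm1. This comparison shares the NC libraries of batch 1 and adds exposure to batch.

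Ratios of members within a library need no scaling between libraries. Tbx2 reads outnumbered Insm1 reads by 1.38 to 1.69 times in batch 1, whereas the ratio was 0.563 to 0.660 in batch 2. The ratio of Gata2 to Gata3 reads, paralogs with a common binding motif, was 6.02 to 8.51 in batch 1 and 9.69 to 12.3 in batch 2. For Isl1 to Hand2 the ratio reached from 0.0446 to 0.0777 in batch 1 and from 0.0310 to 0.0461 in batch 2, which overlap slightly. By contrast Phox2a to Hand2 covered 0.348 to 0.424 in batch 1 and 0.348 to 0.402 in batch 2. These reads are not corrected for gene length, so a ratio is comparable between libraries and not between pairs of genes.

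**Figure D4:**
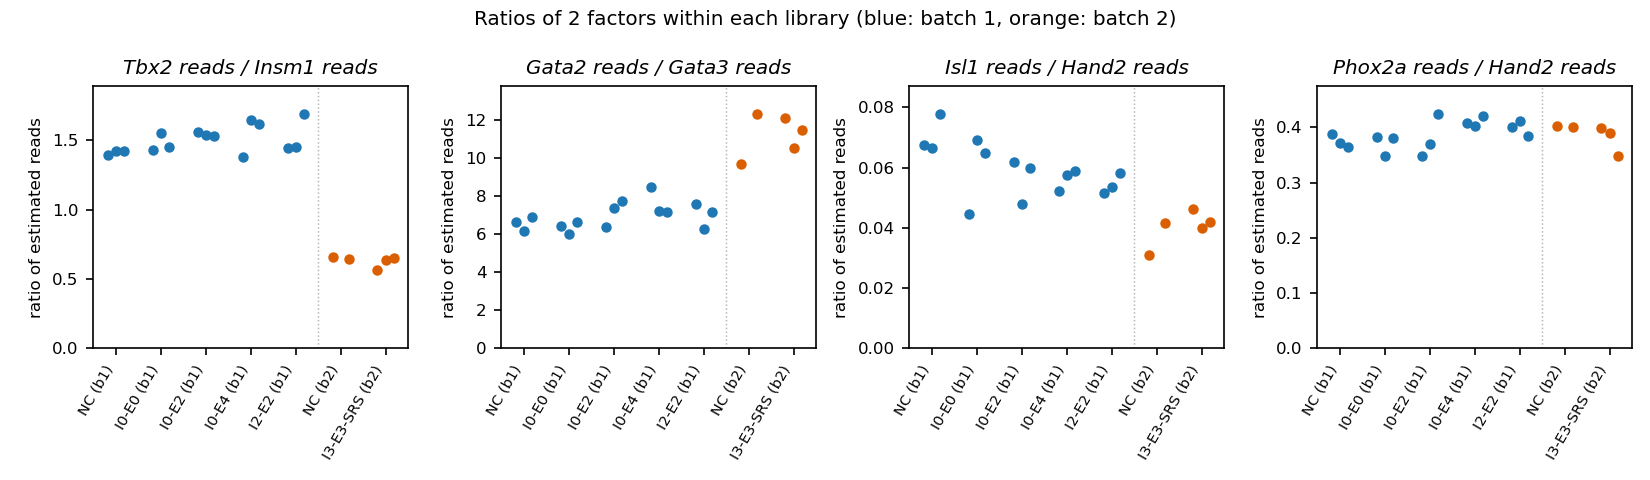
Ratio of the estimated reads of 2 factors within each library (vertical axes from 0), with a point per library in the 7 groups. The Tbx2 to Insm1 ratio is 1.38 to 1.69 in batch 1 and 0.563 to 0.660 in batch 2, while the Phox2a to Hand2 ranges overlap (0.348 to 0.424 and 0.348 to 0.402).

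The companions of these factors were listed by role, and in the exposure comparisons no gene of any list passed the threshold (edgeR adjusted p under 0.05). Between the NC groups, 5 of the 14 tested genes among other sympathoadrenal factors were called, 1 higher and 4 lower in batch 2, beside 17.3% of all genes (9.9% higher and 7.41% lower), with a median log2 fold change of -0.13 against -0.00 for all genes tested. The lowest estimate was that of Tbx3, the T-box paralog of Tbx2, at -2.51 (SE 0.57, edgeR adjusted p = 0.00404). Tbx3 passed the count filter in the fit of batch 1 and not in that of batch 2. It thus entered this comparison through the batch where it was higher, and its direction is no separate evidence.

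Among 20 tested DNA-binding partners and cofactors, 6 were called as higher and 5 as lower in batch 2, where 9.9% and 7.41% of all genes were. Lmo2, a LIM-only bridge between GATA and helix-loop-helix proteins, rose by a log2 fold change of 1.00 (SE 0.12, edgeR adjusted p = 7.22e-06). Id4, which sequesters E-proteins away from factors such as HAND2, was lower at -1.64 (SE 0.14, edgeR adjusted p = 2.03e-07). These were the highest and lowest estimates of that list, whose median was -0.00.

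In the MYC network, 2 of 14 tested genes were called, both higher in batch 2, a share near the 17.3% of all genes called, and the median was 0.04. Myc itself rose while Mycn was lower: it read 164 to 178 CPM in NC of batch 1 and 222 to 235 CPM in NC of batch 2, a log2 fold change of 0.42 (SE 0.06, edgeR adjusted p = 1.21e-04). Myc reads outnumbered Mycn reads by 2.58 to 3.43 times in batch 1 and by 4.91 to 6.76 times in batch 2. Mxd4, a MAX partner that opposes MYC, had the highest estimate at 0.47 (SE 0.11, edgeR adjusted p = 0.00762), and Fbxw7, which marks MYC proteins for degradation, the lowest at -0.20 (SE 0.13, adjusted p = 0.326 in edgeR). Max, the shared partner, had an estimate of 0.18 and did not pass (edgeR adjusted p = 0.162). Of 14 tested MYC target genes 1 was called, where 17.3% of all genes were. This was Fbl, which encodes the nucleolar methyltransferase fibrillarin, at -1.02 (SE 0.24, edgeR adjusted p = 0.00622), and Srm had the highest estimate at 0.16 without passing.

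Among 18 tested noradrenergic effector genes, 1 was called as higher and 4 as lower in batch 2, with a median of -0.11, beside 9.9% and 7.41% of all genes. Dbh, dopamine beta-hydroxylase, had the lowest estimate at -1.20 (SE 0.12, edgeR adjusted p = 7.95e-07) and went from 36.8 to 45.5 CPM in NC of batch 1 to 18.2 and 18.4 CPM in NC of batch 2. Th, tyrosine hydroxylase, was sparse at 18 to 70 reads per library, and its estimate of -0.66 did not pass (edgeR adjusted p = 0.112). Maoa had the highest estimate, 1.03 with an SE of 0.79, and did not pass either. Of 9 tested factors of the mesenchymal neuroblastoma state, 2 were called as higher and 0 as lower, beside the same shares of all genes. The extremes, Fosl1 at 0.53 and Yap1 at -0.38, did not pass. Yap1 passed the count filter in the fit of batch 1 and not in that of batch 2, so its direction is no separate evidence. Fosl1 passed that filter in neither of these fits.

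**Figure D5:**
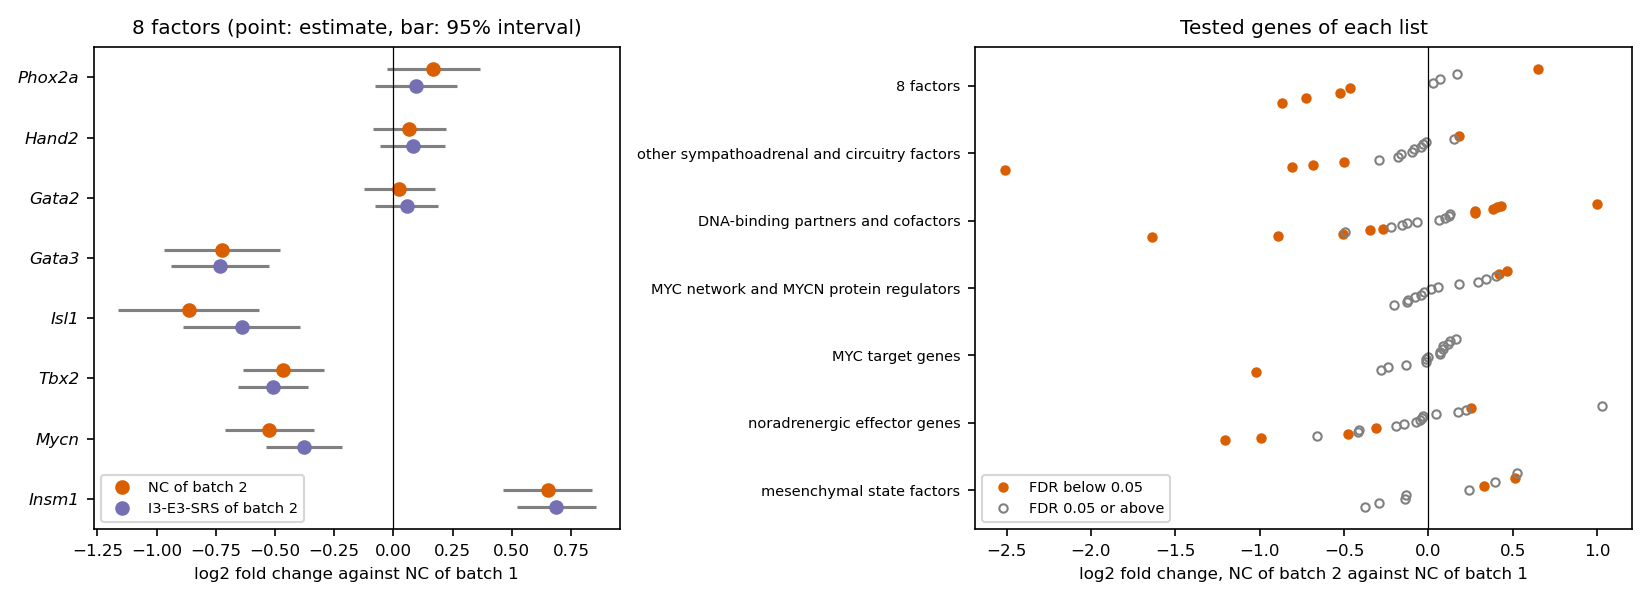
Left, log2 fold change of each factor in the NC and I3-E3-SRS libraries of batch 2 against NC of batch 1, with edgeR estimates and 95% confidence intervals. Right, the NC comparison for each tested gene of the lists, filled where the adjusted p was under 0.05. Gata3, Isl1, Tbx2 and Mycn lie below 0 and Insm1 at 0.65 lies above it. Called genes lie on both sides among the other sympathoadrenal factors, the partners and cofactors and the noradrenergic effector genes. They lie only above 0 in the MYC network and mesenchymal lists and only below 0 among MYC target genes.

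Markers of other cell types were set beside this comparison. Pdgfra, the only tested gene of 6 fibroblast markers, had 25 to 30 reads in NC of batch 1 and 7 to 11 in NC of batch 2. The summed CPM of that list was 3.29 to 7.29 in batch 1 and 1.53 to 2.25 in batch 2. Csf1r, the only tested gene of 7 macrophage and blood markers, had 0 reads in NC of batch 1 and 26 to 35 in NC of batch 2. Csf1r passed the count filter in the fit of batch 2 and not in that of batch 1. The summed CPM of that list was 0.365 to 3.23 in batch 1 and 2.81 to 7.14 in batch 2. Their part in the difference of the 5 factors was not tested.

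For the 3 members with the widest range of group means, the genes of closest pattern were sought over the 7 groups, by the root mean square difference of centred log2 CPM among 9128 genes at 10 CPM or more. Nearest to Isl1 were Cyyr1 (0.05) and Gm3636 (0.06), nearest to Gata3 were Unc79 (0.05) and Snn (0.05), and nearest to Tbx2 were Macrod2 (0.03) and Sh3gl3 (0.04). The median gene differed by 0.29 from Isl1, 0.32 from Gata3 and 0.29 from Tbx2. The nearest of so many genes lie below the median by construction, so these values show no link between genes. The lowest group means of these 3 members were those of batch 2, so the likeness includes the difference between batches.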

How the data were processed

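Reads of polyA RNA from 20 N2A libraries (NEBNext Ultra II RNA kit) were quantified by the authors with Salmon, per the submitters' processing notes. The authors deposited an estimated count and a TPM value for each transcript of each library. The Salmon version, its options and index, the genome build and the strandedness were not given in the sources used here. GENCODE matching covered 98.6% of transcript identifiers in release vM21 (GRCm38), and the others held 0.664% to 0.748% of reads and were left out. Estimated counts were rounded after summing per gene. Low genes were removed with filterByExpr (minimum count 10), and the others were scaled by TMM and tested with edgeR's quasi-likelihood test, with Benjamini-Hochberg adjustment over all genes tested and a threshold of 0.05. Group was the only factor. Fits used 12296 genes in batch 1 (10 residual degrees of freedom), 12031 in batch 2 (3) and 12823 over both (13), and library totals were 5473588 to 12698770. Intervals are at 95%. The members and lists were chosen with earlier results of these data known. Beside the 8 members, the text names Myc, Max, Th, Dbh, the highest and lowest estimate of each list, and the 2 nearest genes by pattern (pseudocount 0.5) for 3 members. Some genes that this rule names are not reported here. The alternatives were RLE size factors, library totals, DESeq2, limma-voom, no filter, counts derived from TPM, only the groups compared, a replicate block and leaving out each library. A comparison of all libraries by batch and of I3-E3-SRS in place of NC, and the test of a difference in exposure effect between batches, were added after seeing the data. The scripts were tested on simulated data. Tables and plots were made in Python 3.11.15 with pandas 2.3.3, matplotlib 3.10.9 and numpy 2.4.6, and fits in R 4.3.3 with DESeq2 1.42.0, edgeR 4.0.16 and limma 3.58.1.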

Additional observations from a re-analysis of the deposited data

Results flagged for a closer look

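Isl1 differed in direction between batches. All 12 exposed libraries of batch 1 lay below the mean of their NC libraries, and all 3 exposed libraries of batch 2 lay above theirs. That NC mean of batch 1, 30.7 CPM, was raised by replicate 3 at 34.9 CPM. NC replicates 1 and 2, at 28.9 and 28.2 CPM, lay below it, and I0-E0 replicate 2, at 29.8 CPM, lay above both. Over the alternatives the estimate ran from -0.36 to -0.06 in I0-E0 and from -0.48 to -0.22 in I2-E2. How many of all genes showed this pattern was not counted. In the fit of all 20 libraries, the log2 difference from NC was -0.26 as the mean of the 4 settings of batch 1 and 0.23 for I3-E3-SRS, and the first less the second was -0.48 (unadjusted p = 0.0106, edgeR adjusted p = 1.00). The settings differ as well as the batches, so batch and setting cannot be told apart. The test was chosen after seeing the data. The batch 2 value rests on NC replicate 1 of that batch, at 14.3 CPM, without which the estimate for I3-E3-SRS was 0.06, and it was 0.46 without NC replicate 2 (edgeR adjusted p = 0.378). Of all genes, 4.4% had an unadjusted p under 0.05 in this test, and 0.0078% passed the adjusted threshold.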

How the results depend on the processing

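In no exposure comparison did an alternative call a member. Between the NC groups, 5 members were called under every alternative except counts derived from TPM, which called 4: there Gata3 reversed to 1.19 on the log2 scale (edgeR adjusted p = 0.0915), where NC replicate 1 of batch 2 has a Gata3 TPM of 47.5. Counts over all genes, 0 for each exposure, moved more. Without the filter they were 110 for I0-E0, 46 for I0-E2, 172 for I0-E4, 160 for I2-E2, 353 for any group of batch 1 and 194 for I3-E3-SRS. DESeq2 called 1 for I0-E0, 1 for I0-E4, 3 for any group and 15 for I3-E3-SRS, and counts from TPM called 1 for I0-E0 and 1 for I0-E4. Leaving out each library gave 0 to 1 for I0-E0, I0-E2 and I0-E4, 0 to 2 for I2-E2 and for any group, and 0 to 671 for I3-E3-SRS, the highest without NC replicate 2 of batch 2. Between the NC groups, 2220 genes became 1120 to 2353 on leaving out each library, and 5281 with all 20 libraries by batch. With the replicate number as a block, I3-E3-SRS gave 6 genes and the NC comparison 2020, with no change of a member's call. Replicate numbers did not pair libraries: 4 of 30 same-number pairs of batch 1 and 0 of 2 in batch 2 had correlated deviations over 0.1, so this fit is given only here. Of the members' fold changes under alternatives, 1048 moved by less than the spread between replicates or kept their call, 23 uncalled ones moved by more, and 1 called value, that of Gata3, reversed. Uncalled estimates near 0 also changed sign, for example that of Mycn in I2-E2 under 13 of 23 alternatives. A fit of only the groups compared was not run for any group of batch 1 or for I3-E3-SRS, where it is the same fit. Batch 2 has 2 NC libraries and 3 residual degrees of freedom.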

Other observations

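Mycn is listed with a second coding transcript, Mycn-202, which held 7.27% of its estimated reads over all libraries. Its share ran from 0% to 22.2% between libraries, and 13 of 20 libraries had at least 1 read on it.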
